A study of Mus musculus with 8 samples.

Results

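The 10 genes described here are a set of macrophage genes listed by symbol: Csf1r, Cd68, Lyz2, Adgre1, C1qa, C1qb, C1qc, Mrc1, Spi1 and Tyrobp. All 10 were found among the 43346 gene identifiers of the count files, and their mRNA abundance was followed in notochord-derived cells (NDCs) at E12.5 (embryonic day 12.5) and at P0 (postnatal day 0). All animals of both stages carried Shh-cre;ROSA:YFP, in which Cre driven by the Shh locus switches on YFP in SHH-expressing notochord cells and everything that descends from them. The Shh locus is also active in the floor plate of the neural tube, so YFP is not exclusive to the notochord, and the E12.5 samples were not sorted for it. There were 4 litters at each stage, and each sample pooled the embryos or pups of 1 litter. E12.5 notochords were dissected whole and went straight into TRIzol, whereas P0 nucleus pulposus (NP) cells were shaken out of opened discs, strained and sorted for YFP, so stage and isolation method cannot be told apart. The question put to these genes was whether their abundance in NDCs differed between both ends of the notochord to NP transformation.

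Macrophages are phagocytes of the innate immune system that enter embryonic tissues early, settle there and clear dying cells and debris. Their development depends on the transcription factor PU.1, encoded by Spi1, and on the receptor for colony stimulating factor 1, encoded by Csf1r. C1q, the recognition molecule of the classical complement pathway, is built from 3 kinds of chain encoded by C1qa, C1qb and C1qc, and tissue macrophages are a major source of it.

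All 10 genes were higher at P0 compared to E12.5, with log2 fold changes between 4.79 for Spi1 and 5.95 for Lyz2. The rise was carried by the P0 litters NPD26, NPD27 and NPD28, in which every one of the 10 genes lay above every E12.5 litter. The P0 litter NPD30 stood apart. Summed over the 10 genes, abundance was 95.3, 79.6, 83.1 and 203 CPM, the count scaled by library size, in the E12.5 litters NDP10.2, NPD3, NPD4 and NPD9.2. The sums at P0 were 7226, 7914 and 4005 CPM in NPD26, NPD27 and NPD28 and 335 CPM in NPD30. Because NPD30 was so far from its stage, the change of each of the 10 genes, and the counts of related genes, are also given without it. NPD30 was picked by these same values, so results without it are descriptions and not a separate check.

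Between 4442775 and 7180221 reads were counted on genes in the E12.5 litters and between 6371842 and 8904050 in the P0 litters. At these depths 3 counts, taken here as the detection floor, correspond to 0.337 to 0.675 CPM, a limit that covers counting error only. Nothing in the labels ties a litter to a batch. Beside the labelled cell type, 12 notochord markers had a summed abundance of 4149 to 12572 CPM at E12.5 and 9271 to 36011 CPM at P0, highest in NPD30. The most abundant of them were Car3, Col2a1, Cd24a and T, so the sum is no measure of how pure a litter was. Of the 12 markers, T (Brachyury) was abundant in every litter, at 242 CPM or more, and Noto, an early notochord gene, was at 0.433 CPM or less in every litter.

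Spi1 encodes PU.1, an ETS family transcription factor that myeloid and B cells need (ENSMUSG00000002111.8, chromosome 2 from 91082390 to 91115756, plus strand, GRCm38). Its abundance was 5.90, 2.93, 2.42 and 4.67 CPM in the E12.5 litters NDP10.2, NPD3, NPD4 and NPD9.2. At P0 it reached 132 CPM in NPD26, 136 in NPD27 and 153 in NPD28 but only 11.8 in NPD30. The first 3 P0 litters were close together, NPD30 lay far below them, and the stages did not overlap. Spi1 rose by 4.79 ± 0.73 on the log2 scale (± its standard error, adjusted p = 0.00145 by edgeR's quasi-likelihood test) and by 5.14 without NPD30.

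Csf1r, the receptor for CSF1 and IL34 (ENSMUSG00000024621.11, chromosome 18 from 61100598 to 61132149, plus strand), measured 18.9, 10.1, 13.3 and 28.5 CPM in the E12.5 litters in the same order. At P0 it measured 803, 1012 and 461 CPM in NPD26, NPD27 and NPD28 and 36.1 CPM in NPD30. NPD30 was only just above the highest E12.5 litter, NPD9.2. The log2 fold change was 5.03 ± 0.87 (adjusted p = 0.00257 by edgeR) and 5.39 without NPD30. Csf1r shares 873 exonic bases with Hmgxb3 on the opposite strand, and the strand setting of the counting was not given in the sources used here. Reads from these bases are therefore uncertain. Hmgxb3 itself collected 1056 counts over all 8 litters, and Csf1r held 52 to 116 counts in each E12.5 litter. The effect of the overlap on Csf1r was not tested.

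Tyrobp encodes the signalling adaptor DAP12, which carries signals from many activating receptors of myeloid cells (ENSMUSG00000030579.9, chromosome 7 from 30413760 to 30417585, plus strand). It was at 8.49, 3.32, 3.02 and 12.8 CPM in the E12.5 litters and at 323, 327, 217 and 18.0 CPM in the P0 litters. The stages did not overlap, but again NPD30 was close to NPD9.2. The log2 fold change was 5.03 ± 0.87 (adjusted p = 0.00258 by edgeR) and 5.39 without NPD30.

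Lyz2, the lysozyme gene of macrophages, monocytes and neutrophils (ENSMUSG00000069516.7, chromosome 10 from 117277331 to 117282321, minus strand), had the largest log2 fold change of the 10 with all litters included. Its abundance was 11.6, 14.2, 11.6 and 69.6 CPM in the E12.5 litters and 2106, 2259, 1957 and 244 CPM in the P0 litters. NPD9.2 was well above the other E12.5 litters, and even NPD30 exceeded it. Lyz2 rose by 5.95 ± 0.93 on the log2 scale (adjusted p = 0.00158 by edgeR) and by 6.27 without NPD30. It fell behind Adgre1 when NPD3 was left out (5.69 for Lyz2 and 5.72 for Adgre1) and when NPD4 was left out (5.68 and 5.81). The neighbouring lysozyme gene Lyz1, which lies 5475 bases away, had no count in any E12.5 litter or in NPD30 and 8, 9 and 8 counts in the other P0 litters. Of the 1217 windows of 100 exonic bases in Lyz2, 24 occur in Lyz1 as well.

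**Figure D1:**
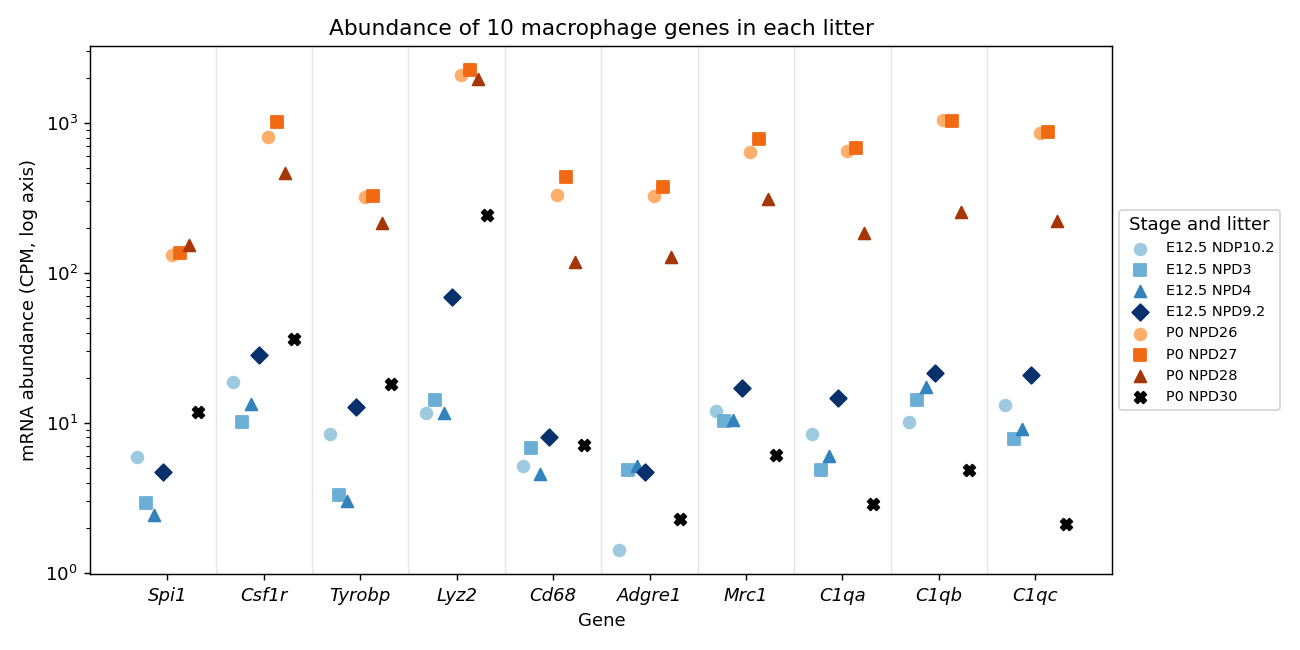
Abundance of each of the 10 genes in CPM (log axis) in every litter, with blue points for the 4 E12.5 litters, orange and brown points for NPD26, NPD27 and NPD28 and black crosses for NPD30. The orange and brown points lie above all blue points for all 10 genes, whereas the black cross lies above the blue points only for Spi1, Csf1r, Tyrobp and Lyz2.

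Cd68 encodes macrosialin, a lysosomal glycoprotein of phagocytes (ENSMUSG00000018774.9, chromosome 11 from 69664213 to 69666153, minus strand). It was at 5.19, 6.83, 4.59 and 8.11 CPM in the E12.5 litters and at 329.8, 436, 118 and 7.13 CPM in the P0 litters. NPD30 fell inside the E12.5 range, so the stages overlapped. The log2 fold change was 5.18 ± 0.99 (adjusted p = 0.00407 by edgeR) and 5.55 without NPD30.

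Adgre1 encodes F4/80, the adhesion receptor most used to mark mouse macrophages (ENSMUSG00000004730.10, chromosome 17 from 57358691 to 57483527, plus strand). Its abundance was 1.42, 4.88, 5.20 and 4.67 CPM in the E12.5 litters and 328, 377, 127 and 2.27 CPM in the P0 litters. The lowest litter at E12.5, NDP10.2, held 6 counts, and NPD30 held only 15 counts. The log2 fold change was 5.66 ± 1.18 (adjusted p = 0.00583 by edgeR) and 6.04 without NPD30.

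Mrc1 encodes the macrophage mannose receptor CD206, an endocytic lectin of tissue macrophages (ENSMUSG00000026712.3, chromosome 2 from 14229392 to 14332057, plus strand). It was at 12.03, 10.3, 10.4 and 17.2 CPM in the E12.5 litters and at 642, 783, 311 and 6.06 CPM in the P0 litters. NPD30 lay below all 4 E12.5 litters. The log2 fold change was 5.13 ± 1.07 (adjusted p = 0.00605 by edgeR) and 5.50 without NPD30.

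The C1q genes lie side by side on the minus strand of chromosome 4, in the order C1qb (ENSMUSG00000036905.8, 136880129 to 136886187), C1qc (ENSMUSG00000036896.5, 136889804 to 136893065) and C1qa (ENSMUSG00000036887.5, 136895917 to 136898803). The cluster spans 18675 bases, with gaps of 3616 and 2851 bases between neighbours, and no window of 100 exonic bases is shared among the 3 genes. C1qa, which encodes the A chain, was at 8.49, 4.88, 6.04 and 14.8 CPM in the E12.5 litters and at 652, 685, 186 and 2.88 CPM in the P0 litters. C1qb, for the B chain, was at 10.1, 14.2, 17.4 and 21.6 CPM and then at 1047, 1025, 254 and 4.85 CPM. C1qc, for the C chain, was at 13.2, 7.81, 9.07 and 20.9 CPM and then at 863, 875, 221 and 2.12 CPM. All 3 genes followed the same order of P0 litters, with NPD26 and NPD27 together, NPD28 well below them and NPD30 below every E12.5 litter. The log2 fold changes were 5.49 ± 1.23 for C1qa (adjusted p = 0.00838), 5.20 ± 1.19 for C1qb (0.00932) and 5.27 ± 1.28 for C1qc (0.0122) by edgeR. Without NPD30 they were 5.88, 5.58 and 5.66.

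The 300 bases around the RefSeq starts of C1qb, C1qc and Cd68 are shown because C1q is the part of the set that differed most between P0 litters, and Cd68 lay nearest to the mean pattern of the 10. Each runs from 250 bases before the start to 50 after it, 5′ to 3′ on the gene's strand, in GRCm38.p6. Capitals mark GAGGAA and GGAAGT, a pair of purine-rich letter strings of the kind ETS factors recognise, on either strand (TTCCTC and ACTTCC on the other). The strings can overlap, as they do in C1qc.
C1qb, chr4:136886151-136886450, minus strand: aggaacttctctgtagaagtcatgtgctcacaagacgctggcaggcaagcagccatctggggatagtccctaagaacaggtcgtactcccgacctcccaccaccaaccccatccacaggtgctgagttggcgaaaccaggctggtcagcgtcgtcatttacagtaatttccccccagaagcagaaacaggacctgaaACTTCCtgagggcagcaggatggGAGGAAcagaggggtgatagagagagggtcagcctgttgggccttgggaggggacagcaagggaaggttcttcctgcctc
C1qc, chr4:136892865-136893164, minus strand: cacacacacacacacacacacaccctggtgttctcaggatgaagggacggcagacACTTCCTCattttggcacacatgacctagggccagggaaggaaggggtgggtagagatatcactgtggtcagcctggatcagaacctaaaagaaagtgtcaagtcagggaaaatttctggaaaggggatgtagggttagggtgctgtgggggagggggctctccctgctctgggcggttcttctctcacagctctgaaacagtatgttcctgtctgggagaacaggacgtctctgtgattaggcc
Cd68, chr11:69666121-69666420, minus strand: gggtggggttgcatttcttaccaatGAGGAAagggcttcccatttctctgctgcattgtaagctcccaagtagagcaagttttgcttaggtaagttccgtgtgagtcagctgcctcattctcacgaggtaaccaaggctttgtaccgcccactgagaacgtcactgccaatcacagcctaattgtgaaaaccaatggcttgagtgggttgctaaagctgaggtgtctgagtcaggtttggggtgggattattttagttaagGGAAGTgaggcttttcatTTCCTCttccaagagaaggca

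RefSeq promoters were found for 5 of the 10 genes: C1qb, C1qc, Cd68, Lyz2 and Mrc1. GGAAGT occurred in 5 of these 5 and in 23.8% of all 32851 promoters of the same length in the table. It began 53 bases before the start in C1qb, 195 before it in C1qc, 100 before it in Lyz2, 211 before it in Mrc1 and at base 12 after it in Cd68. GAGGAA occurred in 4 of the 5, all but Lyz2, and in 28.3% of all promoters. The TATA string TATAAA, searched on both strands, occurred in 0 of the 5 and in 13.6% of all promoters. These matches describe letters in a window and are not binding sites.

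All 10 genes passed the filter on low counts, 9 of them at or above its cutoff in every E12.5 litter as well, and all 10 were called higher at P0 at an adjusted p under 0.05, the threshold used throughout. Over the 15467 genes tested, 16.0% were called higher and 27.9% in either direction. The median log2 fold change of the 10 genes was 5.19, beside 0.04 over all genes tested, and it was 5.56 without NPD30, where 16.0% of 16130 genes tested were called higher. The 10 genes were all called in each of the 8 fits that left out 1 litter, the closest being C1qc at an adjusted p of up to 0.0471. DESeq2 called all 10, with a background of 18.1% higher. Limma-voom called only 4 of them, Csf1r, Lyz2, Spi1 and Tyrobp, with a background of 13.7% higher. Without the filter on low counts 7 were called by edgeR, with C1qa at an adjusted p of 0.0588, C1qb at 0.0636 and C1qc at 0.0766, and a background of 9.18% of 32299 genes. In bulk RNA, fewer cells of a type and less RNA per cell cannot be told apart, and these values do not say which cells the transcripts came from.

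**Figure D2:**
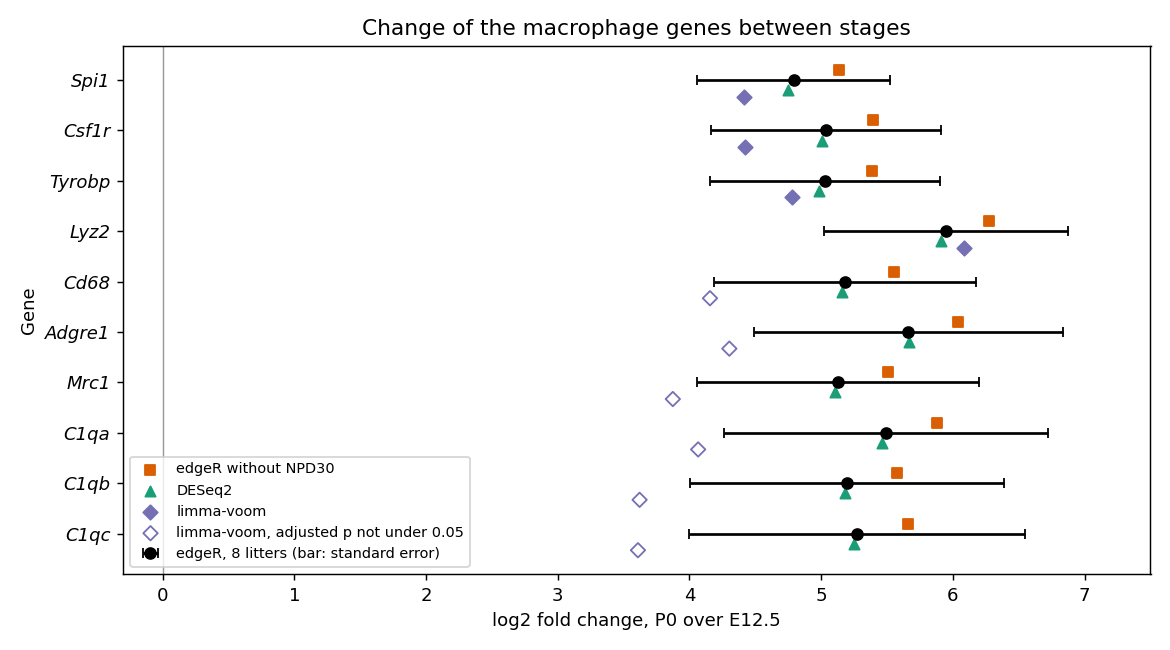
Log2 fold change of each gene, P0 over E12.5, with black points and standard error bars for edgeR on all 8 litters, squares for edgeR without NPD30, triangles for DESeq2 and diamonds for limma-voom. Open diamonds mark 6 genes whose limma-voom adjusted p was not under 0.05, and the lowest point is C1qc by limma-voom at 3.61.

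Stages did not overlap in 4 of the 10 genes, Spi1, Csf1r, Tyrobp and Lyz2, while every P0 litter was above every E12.5 litter in 15.5% of all genes tested. Without NPD30 in the comparison, all 10 genes had their 3 remaining P0 litters above every E12.5 litter, which held for 20.7% of all genes tested. NPD30 fell below every E12.5 litter in Mrc1, C1qa, C1qb and C1qc. Among the 2468 genes called higher at P0, only 45, or 1.82%, had NPD30 below every E12.5 litter.

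The gap between NPD30 and the other P0 litters differed from gene to gene. The mean CPM of NPD26, NPD27 and NPD28 was 8.65 times that of NPD30 for Lyz2, 11.9 times for Spi1, 16.0 times for Tyrobp and 21.03 times for Csf1r. The same ratio was 41.4 for Cd68, 95.4 for Mrc1 and 122 for Adgre1. It was widest for the C1q genes, at 159.8 for C1qb, 176 for C1qa and 308 for C1qc. The C1qc value of NPD30 rests on 14 counts, with an exact 95% Poisson interval of 7.65 to 23.5 counts that covers counting error only.

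NPD28 also differed from NPD26 and NPD27, most for the C1q genes. The mean of NPD26 and NPD27 was 4.08 times the NPD28 abundance for C1qb, 3.93 times for C1qc and 3.60 times for C1qa. It was 3.25 times for Cd68, 2.76 times for Adgre1, 2.29 times for Mrc1 and 1.97 times for Csf1r. Tyrobp was at 1.5 times, Lyz2 at 1.12 times and Spi1 at 0.874 times, so Spi1 was a little higher in NPD28. Each of these gaps compares single litters and carries no test.

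To compare levels between genes, CPM was divided by the exonic length of each gene in kilobases. Per kilobase Lyz2 had the highest level at P0, 1247 ± 714 CPM per kb (SD, n = 4), followed by C1qb at 536 ± 490 and C1qa at 367 ± 327. Spi1 was the lowest at 40.2 ± 24.1 CPM per kb. Adgre1 at 64.4 ± 54.0, Mrc1 at 68.3 ± 54.6 and Csf1r at 100.1 ± 73.9 lay just above it. At E12.5 Lyz2 and C1qb again led, at 20.3 ± 21.7 and 14.6 ± 4.47 CPM per kb, and Adgre1 was lowest at 1.25 ± 0.545. Neighbours in either order differed by less than the larger of their SDs, except Cd68 (4.92 ± 1.27) and Csf1r (3.07 ± 1.40) at E12.5. Within single litters the order shifted, since Lyz2 led in every P0 litter and in NPD9.2 but C1qb led in NPD3 and NPD4 and Tyrobp in NDP10.2.

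The C1q genes together made up 42.1%, 44.5%, 53.1% and 33.5% of the summed CPM per kb of the 10 genes in the E12.5 litters NDP10.2, NPD3, NPD4 and NPD9.2. Their share was 42.7% in NPD26 and 40.5% in NPD27, inside the E12.5 range. It was 19.8% in NPD28 and 3.49% in NPD30, below every other litter. Lyz2 ran the other way, with 15.2%, 22.1%, 17.7% and 39.4% in the E12.5 litters, 33.5% in NPD26, 33.9% in NPD27, 56.0% in NPD28 and 77.6% in NPD30.

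**Figure D3:**
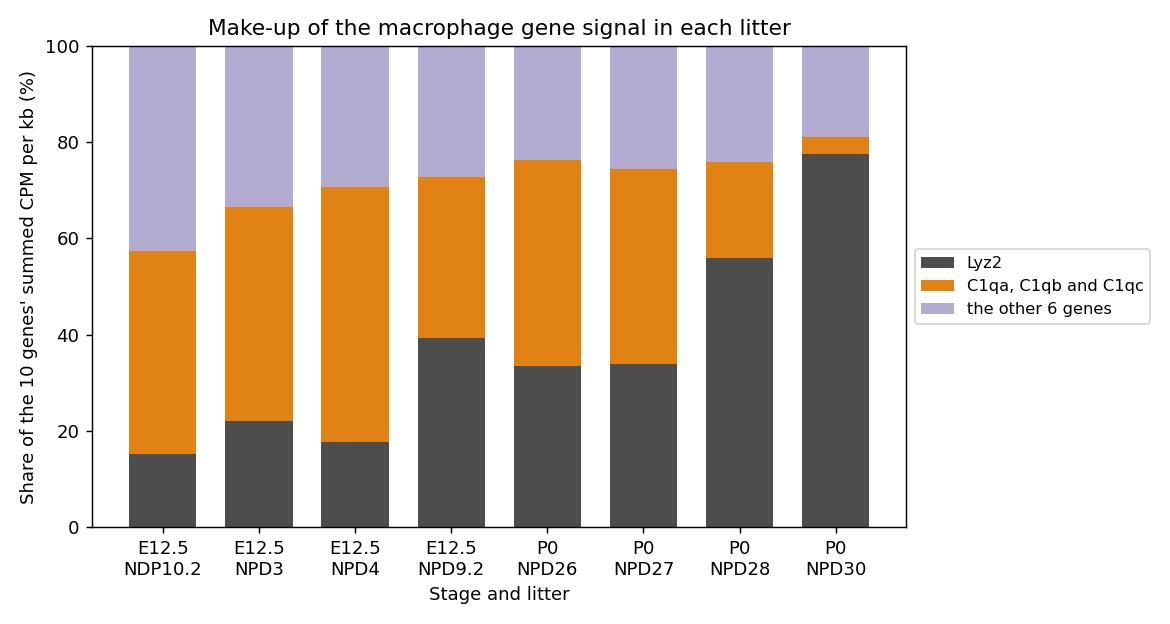
Share, in percent, of the summed CPM per kb of the 10 genes that Lyz2 (dark), the 3 C1q genes (orange) and the other 6 genes (lilac) took in each litter. The orange share is between 33.5% and 53.1% in the E12.5 litters and in NPD26 and NPD27, and shrinks to 19.8% in NPD28 and 3.49% in NPD30.

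Whether the genes changed by unequal amounts between stages was tested on log2 ratios within litters, 9 to Csf1r and 2 among the C1q genes, with a two-sided exact permutation test whose smallest possible p is 0.029. None of the 11 ratios had a p under 0.05, before or after Benjamini-Hochberg adjustment. With 11 tests a single ratio at the smallest possible p could not pass after adjustment, so the adjusted result says little. The largest difference was that of Lyz2 to Csf1r, whose log2 ratio averaged 0.22 ± 0.85 at E12.5 and 1.84 ± 0.72 at P0 (SD, n = 4 each), a difference of 1.63 (exact p = 0.0571, adjusted p = 0.629). The C1qc to Csf1r ratio was tight at E12.5, at -0.46 ± 0.08, and wide at P0, at -1.27 ± 1.82, because NPD30 lay at -3.90 and the other P0 litters averaged -0.39. The C1qa to C1qb ratio was -0.94 ± 0.64 at E12.5 and -0.60 ± 0.11 at P0, with NPD30 at -0.69 beside -0.68 in NPD26. The C1qc to C1qb ratio was -0.36 ± 0.63 at E12.5 and -0.45 ± 0.42 at P0, with NPD30 at -1.08 beside -0.28, -0.23 and -0.20 in NPD26, NPD27 and NPD28. So the C1q genes were far below Csf1r in NPD30, where C1qa kept its ratio to C1qb and C1qc, at 14 counts, was lower against C1qb than in the other P0 litters.

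**Figure D4:**
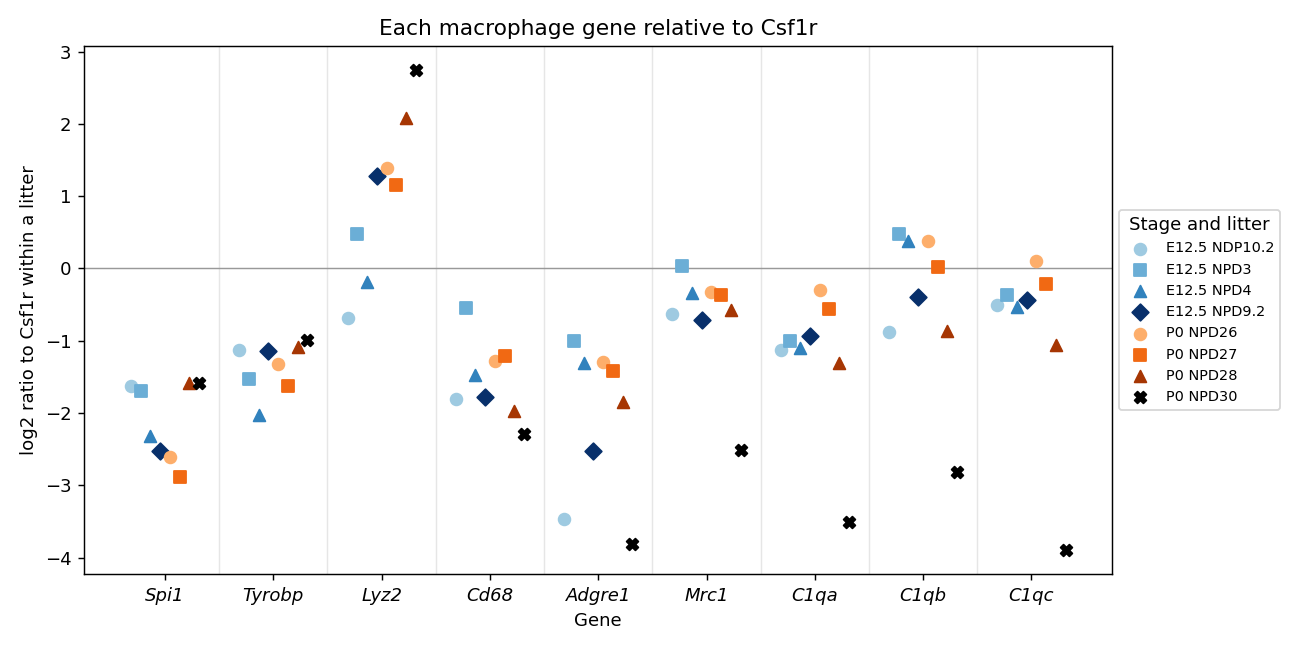
Log2 ratio of each of the other 9 genes to Csf1r within each litter, with the same colours and markers for the litters as in the plot of abundance. The black cross of NPD30 is the lowest point for Cd68, Adgre1, Mrc1 and the 3 C1q genes and the highest for Lyz2, Tyrobp and, narrowly, Spi1.

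The genes whose litter pattern was most like that of the 10 were sought among 12678 other tested genes with a mean log2 CPM of at least 2. Likeness was the root mean square distance between centred log2 CPM values over the 8 litters, which all genes share. The closest was P2ry6, a nucleotide receptor gene, at a distance of 0.287, followed by Fcer1g (0.310), which encodes another signalling adaptor, and Selenop (0.323), for a secreted selenium carrier. The others were the iron exporter gene Slc40a1 (0.332), Nrros (0.375), Cd300a (0.376), Laptm5 (0.412), Mpeg1 (0.416), Sirpa (0.417) and Cd180 (0.424). Of the 10 genes themselves, Cd68 lay nearest to their mean pattern at 0.306 and Lyz2 farthest at 1.26. Selenop was abundant, at 7212, 6921, 2687 and 102 CPM in NPD26, NPD27, NPD28 and NPD30 and at 56.6 to 105 CPM in the E12.5 litters. Slc40a1 was at 1010, 1114, 598 and 20.2 CPM in the P0 litters and at 7.61 to 18.9 CPM at E12.5.

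Other genes of the same cells and pathways were counted from lists of symbols. Genes whose counts were low at E12.5 could enter the test only through P0, so the counts over lists are descriptions. Over all these lists 139 genes were called in either direction, a count to set beside the 27.9% called in either direction over all genes tested. Of the 139, 133 were also called without NPD30, none with the opposite sign. A further 17 genes were called only without NPD30. The share to set beside each count of higher genes is 16.0%, that over all genes tested. Of 30 further macrophage markers, 25 were tested, 15 of them above the filter's cutoff in every E12.5 litter, and 23 were higher at P0, none lower, with a median log2 fold change of 4.47. The most abundant were Apoe (4.71, adjusted p = 0.00722), an apolipoprotein, Lgmn (3.51, 0.00289), a lysosomal protease, Mpeg1 (6.07, 0.0022), a pore-forming protein of phagocytes, and Maf (2.49, 0.00173), a transcription factor. Those tested but not called were Axl and Lyve1. Without NPD30, 29 were tested and all 29 were higher, with a median of 5.19. Of these, Cd163, Marco, Cd86 and Clec10a were not tested with all litters included and were at 1.48 CPM or less in every E12.5 litter. They passed the filter through P0 litters, so this count is a description. Limma-voom called 9 with all litters included. Apoe was at 3339, 3457 and 1006 CPM in NPD26, NPD27 and NPD28 and at 82.2 CPM in NPD30, beside 29.7 to 139 CPM at E12.5. Not every called marker had this pattern. F13a1 was at 105, 146, 88.4 and 91.0 CPM in NPD26, NPD27, NPD28 and NPD30, beside 7.42 to 12.8 CPM at E12.5. Itgam was highest in NPD28, at 298 CPM, and was at 26.2 CPM in NPD30.

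Of 17 genes of the CSF1 receptor pathway and related myeloid regulators, 16 were tested and 14 were higher at P0, none lower, with a median of 4.19, and without NPD30 14 of 16 with a median of 4.51. The ligand genes were the ones not called. Csf1 was at 39.9, 18.9, 9.79 and 21.4 CPM at E12.5 and at 18.9, 24.2, 38.6 and 23.0 CPM at P0, with overlapping stages (log2 fold change 0.23, adjusted p = 0.713), and Il34 stayed at 5.62 CPM or less in every litter. Csf2 had no count in any litter, below the floor of 3 counts. The change was 4.17 on the log2 scale for the Src family kinase gene Lyn (adjusted p = 0.00108), 1.43 for the adaptor gene Grb2 (0.0043), 1.08 for the transcription factor gene Runx1 (0.0145) and 2.05 for the receptor chain gene Csf2ra (0.00397). Without NPD30 these changes were 4.49, 1.60, 1.15 and 2.18, all called. Runx1 was not called without the E12.5 litter NPD9.2 (adjusted p = 0.055).

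Of 18 genes for receptors, other adaptors and enzymes of Tyrobp and related signalling, 16 were tested and 15 were higher, with a median of 5.24. Only Lat2 was not called. Without NPD30 the count was also 15 of 16, with a median of 5.56. Only 6 of the 16 were above the filter's cutoff in every E12.5 litter. The change was 5.09 on the log2 scale for Fcer1g (adjusted p = 0.00319), 5.56 for the kinase gene Syk (0.000747), 6.07 for the sialic acid binding receptor gene Siglec1 (0.00871) and 6.08 for Cd33 (0.0012), and without NPD30 it was 5.46, 5.89, 6.46 and 6.40. Trem2, a receptor that signals through DAP12, followed the C1q genes across P0 litters, at 213, 240, 50.0 and 1.52 CPM, beside 2.34 to 4.72 CPM at E12.5. Syk did not, at 131, 214, 334 and 23.5 CPM, and was highest in NPD28.

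The rest of the complement system gave a mixed picture. Of 28 complement genes besides C1q, 22 were tested and 13 were higher, none lower, with a median of 2.28, and without NPD30 13 of 23 with a median of 1.90. C1q works with the proteases C1r and C1s, and C1ra and C1s1 were scarce, at 4.94 CPM or less and at 13.6 CPM or less in every litter. Both were called higher, C1ra by 5.17 on the log2 scale (adjusted p = 0.00156) and C1s1 by 2.38 (0.0379). Without NPD30 C1ra changed by 5.29 (0.00163), but C1s1 was no longer called (1.90, adjusted p = 0.0979). C1s1 was called in only 2 of the 8 fits that left out 1 litter, those without NPD26 or NPD27, and not by limma-voom (0.265). C1s1 was highest in NPD30 (13.6 CPM) and lowest among P0 litters in NPD27 (0.721 CPM), so it did not follow C1q. The change was 3.57 for the properdin gene Cfp (0.0107), 4.27 for the receptor gene C3ar1 (0.0153) and 1.37 for the collectin gene Colec12 (0.00252), and without NPD30 it was 3.93, 4.65 and 1.25. C1qbp, which encodes a mitochondrial protein first found as a C1q binder, was at 55.6 to 81.4 CPM at E12.5 and at 54.6 to 90.6 CPM at P0 (log2 fold change -0.02).

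Genes related to the 10 by sequence family, rather than by cell type, were counted next. Of 20 other genes of the C1q and TNF related family, 14 were tested, 3 were higher (C1qtnf1, Adipoq and Emilin2) and Emilin1, for a matrix glycoprotein, was lower, with a log2 change of -1.96 (adjusted p = 0.00185) and of -2.04 without NPD30. These counts were the same without NPD30, but Emilin2 was called in only 3 of the 8 fits that left out 1 litter, those without NDP10.2, NPD26 or NPD30. The 3 higher of 14 is near the share of 16.0% over all genes. C1qtnf6 and C1qtnf3, the other abundant genes of this family, were not called, and the median was 0.54, or 0.50 without NPD30. Of 14 other mannose receptor and scavenger receptor genes, 10 were tested and 4 were higher (Scarb1, Colec12, Stab2 and Clec7a), with a median of 0.82, and without NPD30 6 of 12 with a median of 1.04. Mrc2, a relative of Mrc1, averaged higher at E12.5 without being called (log2 fold change -1.42, adjusted p = 0.0969), and Cd36 and Scara3 were not called either. Adgre4 and Adgre5, relatives of Adgre1, were both higher, with log2 fold changes of 6.29 and 2.59, or 6.61 and 2.84 without NPD30. The phagocyte NADPH oxidase, which makes superoxide, is a complex with no sequence kinship to the 10, and all 6 of its genes were higher, with a median of 5.17, among them Cybb at 6.58 (adjusted p = 0.000811), Rac2 at 5.25 (0.000505), Cyba at 3.44 (0.00483) and Ncf1 at 5.31 (0.00303). All 6 were also higher without NPD30, with a median of 5.46. Only 3 of the 6 were above the filter's cutoff in every E12.5 litter.

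Several markers of other blood cells were also higher at P0, in a different order of litters. Neutrophil markers, 13 of 15 tested and all 13 higher with a median log2 fold change of 7.29, summed to 9.91 to 26.8 CPM at E12.5 and to 1036, 1163, 9754 and 1260 CPM in NPD26, NPD27, NPD28 and NPD30. They were led by S100a9, S100a8, Ngp and Mmp9, and Elane was at 0 in every E12.5 litter. Only 1 of the 13 was above the filter's cutoff in every E12.5 litter, so the others needed P0 litters to enter the test. Without NPD30 all 13 were higher as well. The litters thus ranked differently from the macrophage genes, since NPD28 was highest and NPD30 was as high as NPD26 and NPD27. B cell markers (7 of 10 tested, 6 higher, median 5.76, with Ighm, Cd79b and Rag1 called and Ebf1 not) summed to 50.1 to 365 CPM at E12.5 and to 280.2, 295, 991 and 145 CPM at P0. The E12.5 litter NPD4, at 365 CPM, was above all P0 litters but NPD28, and DESeq2 called only 3 of these markers and limma-voom 2. Without NPD30, 8 B cell markers were tested and 7 were higher. Monocyte markers (10 of 10 tested, 7 higher, median 3.91, with Ms4a6c called and Itga4 and Nr4a1 not) summed to 87.0 to 169 CPM at E12.5 and to 285, 310, 724 and 125 CPM at P0, and Chil3 was at 0 in every E12.5 litter. General leukocyte genes (10 of 10 tested and higher, median 5.18, led by Laptm5, Lcp1, Ptprc and Arhgdib) summed to 76.3 to 133 CPM at E12.5 and to 2555, 3081, 4155 and 476 CPM at P0. Above the filter's cutoff in every E12.5 litter were only 1 of the 7 tested B cell markers and 2 of the 10 monocyte markers. Among the 10 general leukocyte genes 6 were. Without NPD30, 7 monocyte markers and all 10 general leukocyte genes were higher. The part of these blood cells in the abundance of Lyz2, Spi1, Tyrobp and the rest was not tested.

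Further lists of markers were counted in the same way. Of 11 osteoclast markers 6 were tested and 4 were higher, or 5 of 8 tested without NPD30 (median 2.20 with it, Car2, Ctsk and Acp5 called and Nfatc1 not). They summed to 115 to 228 CPM at E12.5 and 476 to 717 CPM at P0. Of 9 dendritic cell markers 5 were tested and 3 were higher (median 4.45, Cd74, Itgax and H2-Ab1 called and Zbtb46 not), and of 11 T and NK cell markers 2 were tested, Cd4, which was higher, and Lck, which was not called (median 2.85). Above the filter's cutoff in every E12.5 litter were 2 of the 5 tested dendritic cell markers and 1 of the 2 tested T and NK cell markers. Without NPD30 the counts of higher genes were also 3 of 5 and 1 of 2 in these lists. The T cell receptor gene Cd3e stayed at 0.944 CPM or less in every litter. Of 9 mast cell and basophil markers 4 were tested and 2 were higher, Kit and Mcpt8 (median 1.06, with Gata2 and Cpa3 not called), and Kit was not called without NPD30 (adjusted p = 0.0741). In that fit 5 were tested and 2 were higher. Of 8 microglia markers 7 were tested, 3 were higher and Olfml3 was lower (median 2.49, with Tmem119 and Fcrls not called). Without NPD30 all 8 were tested, 5 were higher and 1 was lower. Cd4 followed the macrophage genes, at 177, 201, 85.8 and 0.758 CPM in NPD26, NPD27, NPD28 and NPD30.

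Markers of the notochord, of vessels and of red cells showed no shared rise. Of 12 notochord markers 11 were tested, 3 were higher, among them Car3 and Cd24a, and 2 were lower, with T and Col2a1 not called (median -0.49), and without NPD30 2 were higher and 4 lower. Of 8 endothelial markers none was higher and 2 were lower (median -0.88), with Egfl7 lower and Cdh5, Pecam1 and Kdr not called. Without NPD30 none was higher and 1 was lower. Erythroid markers were lower in 4 of 9 and higher in 1 (median -2.05), with Hbb-y, Hba-a1 and Hba-x lower and Hbb-bs not called. Without NPD30 5 of the 9 were lower and none was higher. The erythroid markers summed to 9528 to 46859 CPM at E12.5, highest in NPD9.2, the E12.5 litter that also had the most Lyz2, Csf1r and C1q, and to 451 to 1232 CPM at P0. The part of blood left in the dissected E12.5 notochords was not tested.

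**Figure D5:**
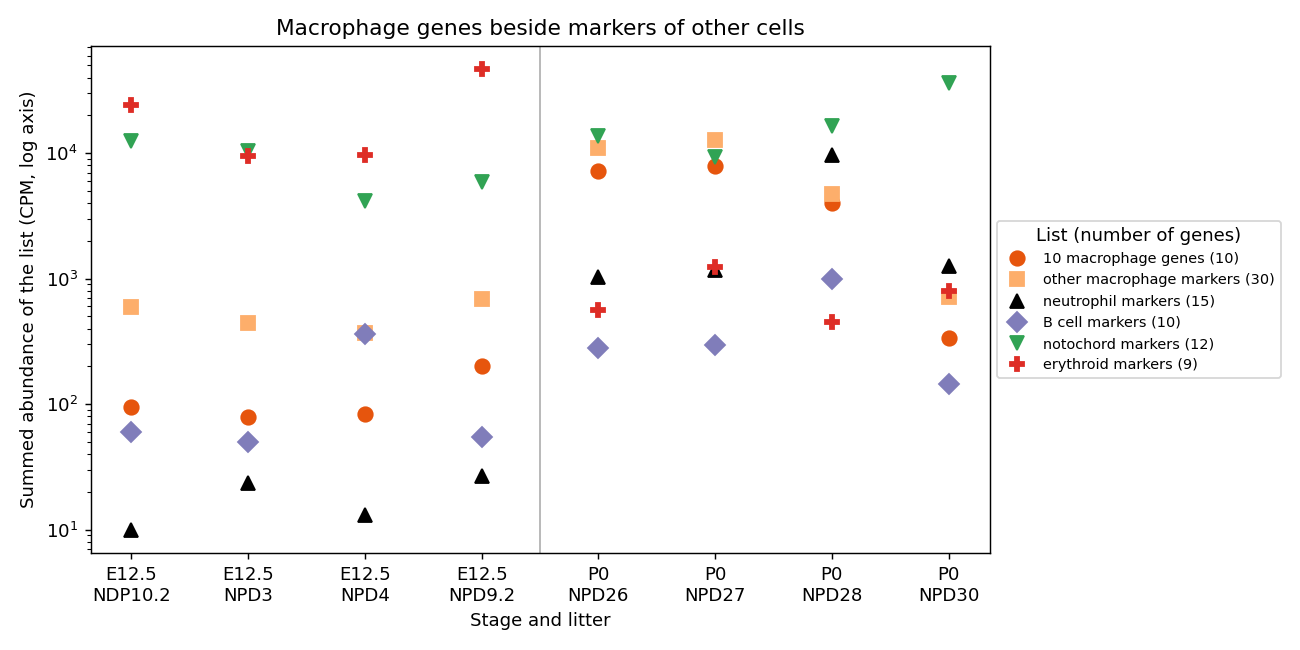
Summed abundance in CPM (log axis) of the 10 macrophage genes, 30 other macrophage markers, 15 neutrophil, 10 B cell, 12 notochord and 9 erythroid markers in each litter, with a grey line between the stages. In NPD30 the macrophage genes (335 CPM) lie near the E12.5 litters while the neutrophil markers (1260 CPM) lie with NPD26 and NPD27 and the notochord markers (36011 CPM) are at their highest.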

How the data were processed

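RNA from pooled animals of 8 litters was sequenced as single-end reads from TotalScript libraries. Per the study's methods and the submitters' processing notes, STAR (2.4.0j) aligned the reads to GRCm38 and htseq-count tallied them per Gencode M4 gene. The authors deposited these counts without normalization. Reads counted on genes were 22.6% to 34.8% of the reads tallied, and the summary lines for the rest were left out of library sizes. The macrophage genes and all lists were chosen with earlier results of these data known.

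The test was edgeR 4.0.16 (R 4.3.3), with TMM factors, filterByExpr (minimum count 10, minimum total 15), robust quasi-likelihood fits on stage alone and Benjamini-Hochberg adjustment over 15467 genes. Standard errors of log2 fold changes were derived as the absolute log2 fold change divided by the square root of the quasi-likelihood F statistic. CPM uses TMM library sizes, and log2 CPM adds a prior count of 2. Alternatives used DESeq2 1.42.0, limma 3.58.1 (voom) and other filters, scalings and samples. Ratios were tested with an exact permutation test in Python 3.11.15. Positions and exonic lengths are those of Gencode M21, also GRCm38, and promoters those of RefSeq. In a simulation of P0 against E12.5 on 15060 genes with 200 changed, edgeR recovered 51.6%, 71.6% and 95.8% of log2 changes of 1.5, 2 and 3, and 4 of 152 calls were false. The simulated litters held no outlier like NPD30, and far fewer genes changed than were called here. These rates therefore do not carry over to the 10 genes. Each litter is a separate pool, and 3 counts set a floor that covers counting error only.

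The genes named are the 10, up to 4 tested genes of highest mean CPM in each list, pathway genes called in the opposite direction, and the 10 of most similar pattern. Some genes that the rule selects from the lists are not reported here. Trem2, F13a1, Itgam, C1ra, C1s1, C1qbp, Csf1, Il34, Csf2, Cd3e, Elane, Chil3, Noto, Lyz1, Cd163, Marco, Cd86, Clec10a and the genes named to fill in a small count of called or not called genes fell outside this rule and were chosen after their values were seen.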

Additional observations from a re-analysis of the deposited data

Results flagged for a closer look

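In each stage the highest and lowest litter of each of the 10 genes was set against the others with Dixon's ratio, the gap to the nearest litter divided by the range, on log2 CPM. Of 20 groups of 4 litters, 5 exceeded Dixon's 95% critical value for 4 samples. Chance gives about 1 in 20 for a single group. The 10 genes share the same litters, so the groups are not separate trials and the number of flags is a description.

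At P0, NPD30 was the low litter in each of 3 genes. For Spi1 the ratio was 0.941, with NPD30 at 3.60 log2 CPM and the other litters at 7.05 to 7.26. For Lyz2 it was 0.935, with NPD30 at 7.93 and the others at 10.93 to 11.14. For Tyrobp it was 0.858, with NPD30 at 4.20 and the others at 7.76 to 8.35. These are genes in which NPD26, NPD27 and NPD28 were close together, so the ratio was high even though NPD30 lay farther from the others in the C1q genes.

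At E12.5, NPD9.2 was the high litter for Lyz2, with a ratio of 0.885, at 6.13 log2 CPM beside 3.57 to 3.86. NDP10.2 was the low litter for Adgre1, with a ratio of 0.913, at 0.79 beside 2.32 to 2.46, and its value rests on 6 counts. Without NPD9.2 and NPD30 together, all 10 genes were called higher at P0, in a fit that called 3907 genes in either direction over all genes tested. Both litters were picked by their values in these genes, and leaving them out moves the stages apart. This fit is therefore no separate check.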

How the results depend on the processing

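The 10 genes kept a higher abundance at P0 in every one of the 179 values computed for them under alternatives, with log2 fold changes from 3.61 to 7.36. The highest was Lyz2 without NPD9.2 and NPD30, litters picked by their values in these genes. Of the 179 values, 170 stayed past the threshold and 9 did not. The 9 were Cd68, Adgre1, C1qa, C1qb, C1qc and Mrc1 with limma-voom and C1qa, C1qb and C1qc without the filter. Limma-voom therefore called 4 of the 10 in place of 10, and the cause was not tested. Under a filter of at least 10 counts in every sample 9 were called, since Adgre1 was removed, and 3063 genes were called over all genes tested. That filter also lowered the number of called genes in the related lists from 139 to 61, because genes near 0 at E12.5 were no longer tested. When glmTreat asked for changes beyond a fold of 2, 1928 genes were called in place of 4321 by construction, and all 10 macrophage genes were among them. Leaving out 1 litter at a time gave 10 to 10 of the macrophage genes, 129 to 150 of the list genes and 3612 to 4529 of all genes. None of the ratios passed with prior counts of 0.5 or 5 or with Tyrobp as the reference, where the same limit on the smallest p holds.

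Counts for single lists were less stable, with 58 of 360 moving by over 1.5 times. The other macrophage markers ranged from 9 called (limma-voom) to 29 (without NPD30), the neutrophil markers from 1 to 14, complement from 4 to 14, the B cell markers from 0 to 7, the Tyrobp list from 5 to 15 and the CSF1 receptor list from 9 to 14. No paired analysis was possible because the labels name different litters at each stage and the replicate numbers only follow the order of deposit. At E12.5 the macrophage genes rest on 6 to 283 counts a litter, which limits what can be said of their order there.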
